A study of Mus musculus with 6 samples.

Results

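Cortical layer 5 was studied here as 720 spots of a spatial transcriptomics series on the mouse brain, out of 16741 spots in all. In Visium, a tissue section lies on a slide printed with barcoded capture spots, and each spot returns unique molecular identifier (UMI) counts from the small patch of tissue above it. A spot can hold several cells of different types, so every value below describes patches of cortex rich in layer 5 transcripts and not sorted neurons. Within each section, spots with at least 500 UMIs were scored by the sum of log1p(UMIs × 10000 / spot total) over Fezf2, Etv1, Parm1, Stac2 and Rbp4, and the 120 highest spots were taken. The series holds 6 coronal sections, 16 µm thick, from frozen brains of C57BL/6J male mice, for which the labels give no treatment and no engineered allele: 2 sections of age 6 months (young), 2 of 18 months (middle) and 2 of 21 months (old). Since the labels name 2 males for every age, a section counts as 1 replicate here and keeps the number its label gives. Young 1, young 2, middle 1 and old 1 were on slide 1, and middle 2 and old 2 were on slide 2, so no young section shares a slide with the second section of either older group.

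Layer 5 is the main output layer of the neocortex. Its extratelencephalic neurons, specified by Fezf2 and Bcl11b, send thick axons to the brainstem, thalamus and spinal cord; its intratelencephalic neurons project within the cortex and to the striatum, and a smaller near-projecting class stays local. The layer also holds many parvalbumin-expressing, fast-spiking interneurons, which inhibit the pyramidal cells around their somata. Immediate early genes such as Egr1, Nr4a1 and Fos are transcribed within minutes of neuronal firing or of growth factor signalling, and the inducible Hsp70 genes Hspa1a and Hspa1b are transcribed when heat shock factor 1 binds their promoters under protein-folding stress.

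The members contributed between 3047274 UMIs (old 2) and 5010658 UMIs (middle 1) per section, which was 5.0% to 6.57% of the UMIs of a section. The median member held 41204.5 and 38250.5 UMIs at 6 months of age, 41175 and 33303.5 at 18 months and 35247 and 24559 at 21 months; the median other spot held between 20011 and 29274. Old 2 was thus the shallowest section for layer 5. The share of member UMIs from the mitochondrial genome lay between 13.9% (old 1) and 16.7% (young 1). Barcodes mark positions on the slide, so sections share them: 1920 of 3389 barcodes were present in all 6. All levels are given as CPM, counts scaled to the total of the summed members of a section.

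The score at the edge of the selection was shallow: spot 120 scored between 3.1 (old 2) and 3.23 (young 2), and spot 121 between 3.1 and 3.22. The median of the other spots was between 1.07 and 1.17. All 5 rule genes were detected in 61 (old 2) to 96 (young 1) of the 120 members of a section. Since these 5 genes chose the members, their levels are a description only. Fezf2, the transcription factor that specifies corticospinal neurons, was at 100 CPM on average in layer 5 spots and 13.2 CPM in the other spots. Etv1 stood at 230 CPM against 74.1 CPM, Parm1 at 141 against 35.8 CPM, Stac2 at 135 against 46.5 CPM, and Rbp4, the retinol carrier whose Cre line labels layer 5, at 59.8 against 15.5 CPM. By section, Fezf2 was at 101 and 101 CPM in young, 100 and 88.9 CPM in middle and 112 and 96.5 CPM in old sections. Rbp4 varied more, at 71.7 and 63.5 CPM in young, 41.7 and 53.1 CPM in middle and 69.3 and 59.7 CPM in old sections. Stac2 was at 124 and 124 CPM in young, 139 and 166 CPM in middle and 115 and 145 CPM in old sections.

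Genes that the rule did not use were set against the label. Because the same spots were chosen by their transcripts, no test was made of layer 5 spots against the rest, and log2 ratios of CPM + 1 are given as averages over the 6 sections. Of 6825 genes with at least 20 CPM in layer 5 spots, 1865 were higher than in the other spots in all 6 sections, and 47 had a mean log2 ratio of at least 1. Among the leading genes outside the rule were Amn (1.81), Gm19410 (1.77), Npnt (1.72), Tshz2 (1.57), Syt2 (1.53), Myl4 (1.51), Tafa1 (1.51) and Coro6 (1.5). Tshz2, a transcription factor of near-projecting neurons, was at 64.3 against 20.9 CPM, and Pou3f1, a transcription factor of extratelencephalic neurons, at 65.2 against 25.6 CPM. Next in order came Dkkl1, Gm13205, Ldb2, Pou3f1, Tmem200a, Hs3st2, Efr3a, Pvalb, Slc5a5, Satb1 and Bend5, with ratios from 1.39 down to 1.25. Pvalb, the calcium buffer of fast-spiking interneurons, was the most abundant of these, at 580 CPM in layer 5 spots and 238 CPM in the others. Syt2, the calcium sensor of fast-spiking terminals, was at 84.1 CPM against 28.3 CPM.

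Among other layer 5 genes left out of the score, Bcl6 had a log2 ratio of 1.17, Sulf2 of 1.16, Nefh (the heavy neurofilament of thick axons) of 1.00, Crym of 0.89, Scn4b of 0.74 and Bcl11b of 0.38. The label was not borne out by every marker: Pcp4 was as high in the other spots (1565 CPM) as in layer 5 spots (1604 CPM) and higher in layer 6 spots (2288 CPM), and Vat1l (-0.49) and Slco2a1 (-0.84) were lower in layer 5 spots than elsewhere. Layer 6 spots held much of these lists too. The 12 extratelencephalic genes, Pcp4 among them, summed higher in layer 6 spots in every section. The 7 intratelencephalic genes summed to 297 CPM in layer 5 and 254 CPM in layer 6 spots of young 1. They were the higher in layer 5 spots in every section but old 1 (265 against 284 CPM). The 4 near-projecting genes were lower in layer 6 spots in every section (71.5 against 9.12 CPM in young 1). Among markers of other layers and regions, many were below the rest of the section: Cux2 at -1.39 and Calb1 at -1.50 for the upper layers, Foxp2 at -2.23 and Hs3st4 at -0.68 for layer 6, Prkcd at -4.22 for thalamus, Mbp at -0.70 for oligodendrocytes and Aqp4 at -1.04 for astrocytes. Lamp5, used here as an upper-layer marker, was an exception at 1.03. The 3 amygdala and lateral cortex genes listed (Rspo2, Cyp26b1 and Nr2f2) were divided between sections. They summed to 63.5 against 57.4 CPM in the other spots of young 2, and to 69.6 against 63.5 CPM in old 2. In the remaining sections they were at 27.3 (old 1) to 39.7 CPM (middle 2) in layer 5 spots, below the other spots. Layer 4 markers were mixed: Scnn1a, a sodium channel subunit gene, was at 1.25 (6.91 against 2.31 CPM) and Rspo1 at 0.34, while Rorb was at -0.74 and Endou at -1.15. The 5 layer 4 genes listed summed to between 52.7 and 83.0 CPM in layer 5 spots and between 66.9 and 78.8 CPM in the other spots, and were the higher in layer 5 spots in old 2.

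**Figure D1:**
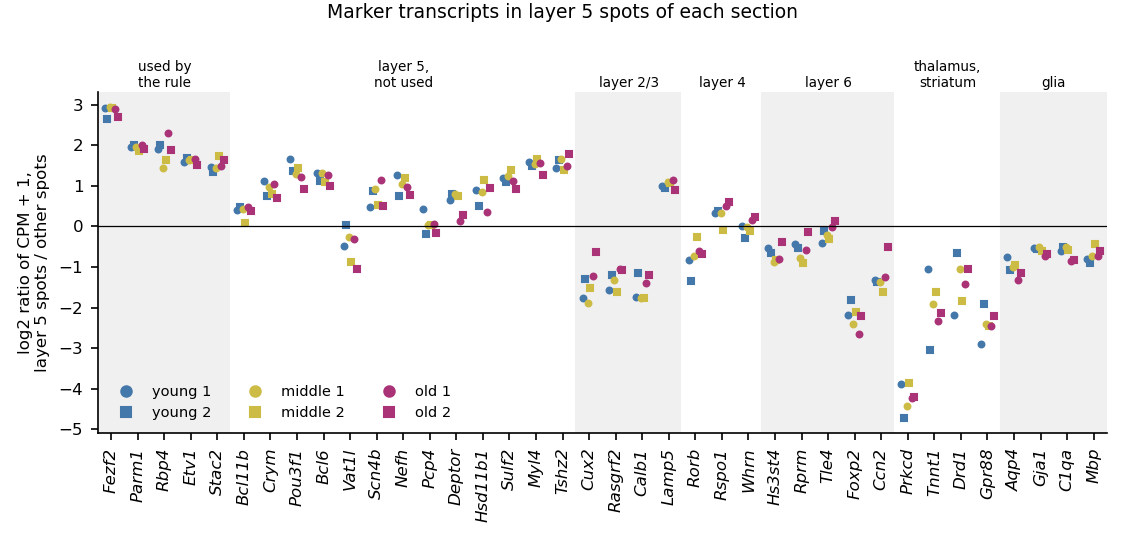
Log2 ratio of CPM + 1 between layer 5 spots and the other spots of the same section (y axis) for layer marker genes and markers of other cells (x axis, grouped by list); each point is 1 section, coloured by age. The 5 rule genes sit between mean ratios of 1.52 (Stac2) and 2.83 (Fezf2), most other layer 5 genes lie above 0, and Foxp2 (mean -2.23), Cux2 (-1.39) and Mbp (-0.70) lie below 0.

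The 720 spots were not uniform among themselves. Within a section, the 120 members were ranked by the CPM of marker genes that were picked after their values were seen, and Spearman coefficients are given as means over the 6 sections with the lowest and highest, without p-values, because the points share a library and depth differs between spots. Pvalb ran with Nefh (0.59, from 0.51 to 0.67). Myl4, a myosin light chain gene, ran with Pcp4 (0.60, from 0.51 to 0.68). Tshz2 ran opposite to Pcp4 (-0.47, from -0.57 to -0.33), and Pvalb opposite to Crym (-0.37). The members therefore included spots rich in Pvalb and Nefh and others rich in Crym, in each of the 6 sections. A few members carried little cortical signal: 1 to 6 spots per section had under 200 CPM of Slc17a7, the vesicular glutamate transporter of cortical pyramidal cells. Meningeal genes (Col1a1, Col1a2, Dcn, Igf2 and Slc6a13, summed) reached 200 CPM in 0, 1, 3, 5, 1 and 7 members of young 1, young 2, middle 1, middle 2, old 1 and old 2. In the summed members these genes were at 9.83, 10.6, 17.6, 22.2, 13.0 and 49.6 CPM in that order, so old 2 stood apart from the rest. Without all such spots they were at 8.81 CPM in old 2. The fits below were also computed without these spots, but the genes whose calls moved are named only in part.

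Old layer 5 spots were first set against young ones. In the old sections the inducible Hsp70 pair Hspa1a and Hspa1b, the co-chaperone Dnajb1, the glucocorticoid-induced kinase Sgk1 and the NF-κB inhibitor Nfkbia were lower, and 6 genes were higher: AC149090.1, the oligodendrocyte transcription factor Nkx6-2, the lysosomal membrane protein Litaf, the microglial adaptor Tyrobp, the cold-inducible RNA-binding protein Cirbp and the cytochrome oxidase subunit Cox6a2. These 11 genes passed edgeR's quasi-likelihood test with Benjamini-Hochberg adjustment at 0.05 out of 12641 tested, which is 0.087% of them (0.0475% higher and 0.0396% lower). With 1 section left out, 53 genes were called without young 1, 102 without young 2 and 62 without old 1, with 11, 9 and 9 of them the same. Without old 2, the section richest in meningeal transcript, 11 genes were called, 5 of them the same; without the members low in Slc17a7 or high in meningeal genes, 9 were called, 8 of them the same, and with the slide as a block 10, 6 of them the same. The median log2 change of all genes was -0.001. A group with 2 sections separates from another by level in many genes without such a call: 17.5% of genes were higher in both old sections than in either young one, and 17.5% were lower. In bulk sums of spots, fewer cells of a type and less RNA per cell cannot be told apart.

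Hspa1a and Hspa1b are neighbours on chromosome 17 (Hspa1a at chr17:34969190-34972156 and Hspa1b at chr17:34956436-34959238, minus strand, mm10) and encode near-identical proteins, so the split of reads between them is uncertain. The 250 bases before each start are shown, since both genes moved together: they were identical at 247 of 250 positions (98.8%). Sequences are from RefSeq, GRCm38.p6, and the capitals mark GAANNTTC, a heat shock element core, searched on both strands and found once in each at base -104 from the start; 2199 of 32851 RefSeq promoters of this length (6.69%) held it. Hspa1a lies at chr17:34972157-34972406 and Hspa1b at chr17:34959239-34959488, minus strand.
Hspa1a: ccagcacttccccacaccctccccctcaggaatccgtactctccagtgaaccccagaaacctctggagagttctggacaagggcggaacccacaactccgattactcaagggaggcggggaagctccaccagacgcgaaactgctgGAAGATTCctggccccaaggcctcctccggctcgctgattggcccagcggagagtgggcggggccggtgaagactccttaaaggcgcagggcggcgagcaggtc
Hspa1b: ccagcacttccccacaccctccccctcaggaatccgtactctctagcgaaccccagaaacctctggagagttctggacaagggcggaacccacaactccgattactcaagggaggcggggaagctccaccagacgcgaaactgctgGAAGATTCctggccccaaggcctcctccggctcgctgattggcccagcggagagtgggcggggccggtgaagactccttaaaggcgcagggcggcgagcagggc
The match describes these letters only; no binding was measured.

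Hspa1b was at 44.4 and 33.2 CPM in young, 13.4 and 16.0 CPM in middle and 15.2 and 11.8 CPM in old sections. Both young sections lay above all 4 older ones. The log2 change from young to old was -1.53 (SE 0.18, adjusted p = 3.09e-06 by edgeR). Hspa1a was at 44.4 and 41.8 CPM in young, 16.4 and 17 CPM in middle and 22.5 and 16.4 CPM in old sections, a log2 change of -1.14 (SE 0.16, adjusted p = 2.65e-05 by edgeR). Old 1, on the slide that carried both young sections, was below both of them for each gene. The other spots of the same sections followed the same course: Hspa1b there was at 54.4 and 51.8 CPM in young, 16.6 and 15.2 CPM in middle and 16.7 and 13.3 CPM in old sections. Dnajb1, the Hsp40 that delivers clients to Hsp70 (chr8:83608193-83612653), was at 101 and 116 CPM in young, 71.2 and 80.8 CPM in middle and 82.5 and 71.5 CPM in old layer 5 spots. Its log2 change was -0.51 (SE 0.10, adjusted p = 0.0139 by edgeR), with no overlap between young and old sections; without old 2 it was -0.42 (adjusted p = 0.463).

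These 3 were the called members of the 27 chaperone genes tested. Of the 27, 21 had a negative log2 change and 6 a positive one, with a median of -0.084. The constitutive chaperone Hspa8 had a change of -0.08 (adjusted p = 0.937 by edgeR), Hsp90aa1 of -0.21 (adjusted p = 0.603), Hsph1, the Hsp110 exchange factor, of -0.28 (adjusted p = 0.371), and Hspb1, a small heat shock protein, of -0.01 (adjusted p = 0.999). The same heat shock core was found in the promoters of 6 of the 22 chaperone genes that RefSeq promoters matched: Hspa1a, Hspa1b, Hspb1, Hspe1, Dnaja1 and Fkbp4. The last 4 of these were among the genes without a call, and the called gene Dnajb1 had a matched promoter without this core.

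Sgk1, a kinase induced by serum and glucocorticoids that controls ion transport, was at 96.7 and 124 CPM in young, 53.5 and 69.8 CPM in middle and 64.5 and 58.1 CPM in old sections (log2 change -0.86, SE 0.12, adjusted p = 0.000164 by edgeR). Nfkbia, which holds NF-κB in the cytoplasm, was at 28.7 and 29.0 CPM in young, 11.8 and 18.6 CPM in middle and 15.9 and 13.1 CPM in old sections (log2 change -1.0, SE 0.19, adjusted p = 0.0114 by edgeR). For both genes all 4 older sections lay below both young ones. Sgk1 and Nfkbia were the called members of the 15 glucocorticoid-response genes tested, of which 12 had a negative and 3 a positive log2 change (median -0.247). Ddit4, a stress-induced inhibitor of mTOR, had a change of -0.60 (adjusted p = 0.39) and Klf9, a direct target of the glucocorticoid receptor, of -0.35 (adjusted p = 0.207), both by edgeR. The call on Sgk1 was lost when members were chosen without Etv1 (adjusted p = 0.492), and that on Nfkbia without old 2 (adjusted p = 0.166).

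Among the genes that rose, AC149090.1, a protein-coding gene model on an unplaced scaffold of the assembly, had the smallest adjusted p. It was at 108 and 129 CPM in young, 192 and 233 CPM in middle and 238 and 245 CPM in old layer 5 spots, with no overlap between any of the 3 ages (log2 change old against young 1.00, SE 0.09, adjusted p = 9.72e-10 by edgeR). The other spots held 118 and 153 CPM in young and 265 and 271 CPM in old sections. Cirbp, induced by mild cooling, was at 56.3 and 63.7 CPM in young, 78.8 and 80.5 CPM in middle and 94.9 and 81.1 CPM in old sections (log2 change 0.54, SE 0.11, adjusted p = 0.0139 by edgeR, and 0.303 without old 1). Rbm3, the other classic cold-induced RNA-binding protein, was at 115 and 112 CPM in young, 175 and 145 CPM in middle and 164 and 132 CPM in old sections. It lay higher in all 4 older sections, but its log2 change of 0.37 did not pass (adjusted p = 0.47 by edgeR). Cirbp was the only called gene of the 4 cold-induced genes tested. Cox6a2, an isoform of cytochrome oxidase subunit 6A known from muscle, was at 55.7 and 54.4 CPM in young, 75.8 and 78.2 CPM in middle and 80.6 and 77.8 CPM in old sections (log2 change 0.50, SE 0.11, adjusted p = 0.0305 by edgeR). It was the called member of 79 nuclear-encoded oxidative phosphorylation genes, of which 39 had a positive and 40 a negative change.

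Tyrobp, the signalling adaptor of TREM2 in microglia, was at 39.1 and 38.6 CPM in young, 54.1 and 54.1 CPM in middle and 55.3 and 64.3 CPM in old layer 5 spots (log2 change 0.59, SE 0.12, adjusted p = 0.0305 by edgeR). Every older section lay above the young ones. Of the 11 microglial genes tested, Tyrobp alone was called, 8 had a positive change and 3 a negative one, and the median was 0.315. Trem2 itself had a log2 change of 0.47 (adjusted p = 0.706), C1qc of 0.41 (adjusted p = 0.504) and the homeostatic receptor P2ry12 of -0.07 (adjusted p = 0.985), all by edgeR. The summed level of the 11 genes was 389 and 428 CPM in young, 478 and 468 CPM in middle and 465 and 541 CPM in old sections. Whether the number of microglia per spot differed was not tested. Nkx6-2 was at 11.3 and 10.4 CPM in young, 18.8 and 20.9 CPM in middle and 20.4 and 22.6 CPM in old sections (log2 change 0.95, SE 0.20, adjusted p = 0.0305 by edgeR), and Litaf at 18.6 and 15.0 CPM in young, 27.3 and 26.4 CPM in middle and 28.7 and 31.5 CPM in old sections (log2 change 0.80, SE 0.17, adjusted p = 0.0305 by edgeR). The calls on Nkx6-2, Litaf, Tyrobp and Cox6a2 were lost in 8 or more of 21 alternatives each, including DESeq2 and 60 members per section. Without old 2 their adjusted p was 0.345, 0.345, 0.602 and 0.152. The calls on Nkx6-2 and Litaf were also lost without young 2 (0.0521 and 0.14), and that on Cox6a2 without old 1 (0.175) or middle 1 (0.0537).

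**Figure D2:**
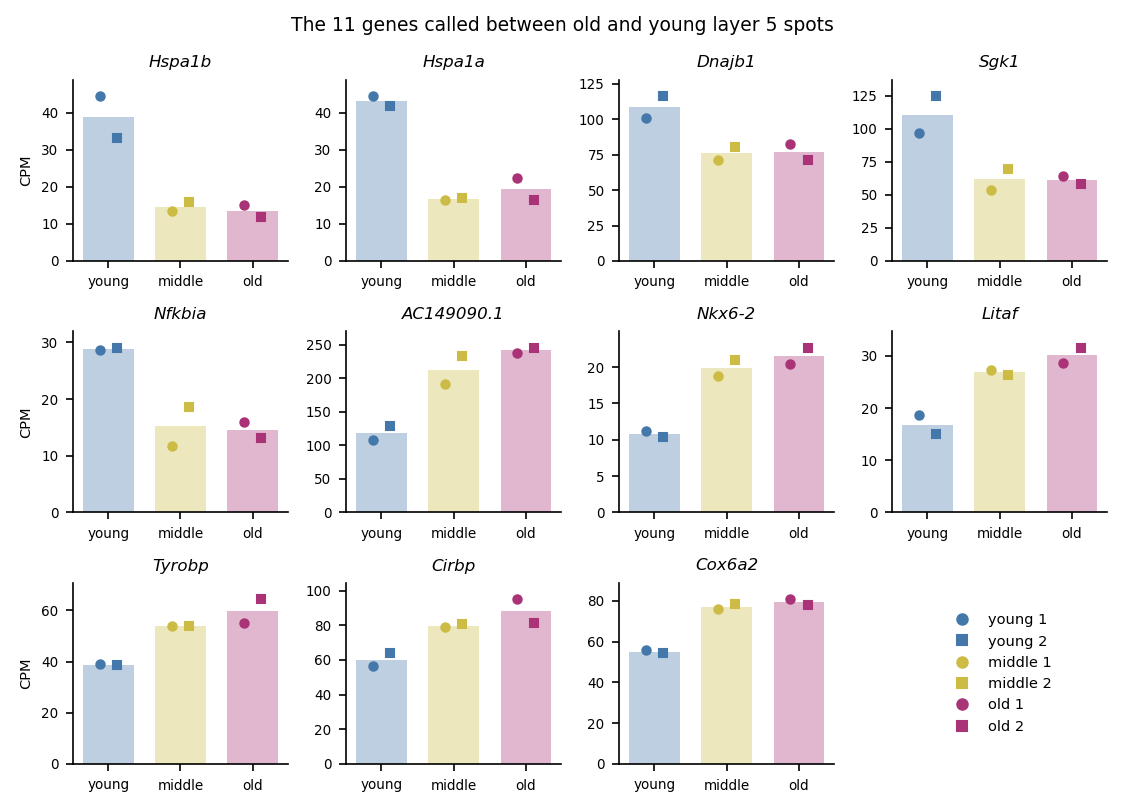
CPM of summed layer 5 spots (y axis, linear from 0) by age (x axis) for the 11 genes called between old and young; each point is 1 section and each bar a group mean. Hspa1b falls from 44.4 and 33.2 CPM in the young to 15.2 and 11.8 CPM in the old sections, AC149090.1 rises from 108 and 129 CPM to 238 and 245 CPM, and the middle sections lie near the old ones.

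Glial activation genes had mostly positive changes without a call. Of 18 tested, 15 had a positive and 3 a negative log2 change from young to old, with a median of 0.291. C4b, the complement component, was at 4.10 and 3.68 CPM in young, 13.8 and 10.5 CPM in middle and 7.83 and 25.9 CPM in old sections, and Gfap, the astrocyte filament, at 12.3 and 16.3 CPM in young, 20.8 and 32.9 CPM in middle and 20.2 and 47.6 CPM in old sections. Old 2 was the highest section for both. Their log2 changes of 1.99 and 1.16 had adjusted p = 0.797 and 0.87 by edgeR. Old 2 also held the most meningeal transcript: all 5 meningeal genes tested had a positive change, with a median of 1.54, and none was called. The summed level of the 6 listed was 441 and 405 CPM in young, 600 and 509 CPM in middle and 418 and 959 CPM in old sections. Most of that sum is Ptgds, the prostaglandin D synthase gene, at 431 and 395 CPM in young, 583 and 487 CPM in middle and 405 and 909 CPM in old sections. Their part in the glial values was not tested.

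None of the listed layer 5 genes outside the rule that were tested was called between old and young. Of the 10 extratelencephalic genes tested outside the rule, 0 were called and all 10 had a log2 change below 0, with a median of -0.126. Pcp4, a calmodulin regulator of these cells, was at 1941 and 1448 CPM in young, 1585 and 1879 CPM in middle and 1268 and 1502 CPM in old sections, so the groups overlapped (log2 change -0.32, adjusted p = 0.896 by edgeR). Bcl11b had a change of -0.15 (adjusted p = 0.931) and Nefh of -0.15 (adjusted p = 0.856). The 7 intratelencephalic genes held no call either: 3 were above and 4 below 0, and Deptor, an mTOR-binding protein, had the largest change, -0.60 (adjusted p = 0.39 by edgeR). Their summed level was 297 and 286 CPM in young, 298 and 307 CPM in middle and 265 and 267 CPM in old sections. Both old sections were thus the lowest. An exact two-sided permutation test over the 90 assignments of the 6 sections to the 3 ages gave p = 0.0667. This is the smallest this design allows, since exchanging the ages of whole pairs leaves the statistic unchanged. The p adjusted over the 42 section summaries was 0.60 or more for each of them.

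The listed receptor, channel and structural genes of neurons held no call between old and young. Log2 changes were negative for 24 of 33 glutamate receptor and scaffold genes (median -0.091), 25 of 34 calcium-handling genes (median -0.059), 21 of 33 ion channel genes (median -0.050) and 13 of 18 axon cytoskeleton genes (median -0.071). Synaptic vesicle genes were divided, with 16 of 27 above 0 (median 0.020). All 13 mitochondrially encoded genes had a negative change, with a median of -0.170 and none called; mt-Nd3, a complex I subunit, had a change of -0.32 (adjusted p = 0.207 by edgeR). Their share of member UMIs was 16.7% and 14.4% in young and 13.9% and 14.6% in old sections. The groups thus overlapped in this share, and young 1 alone stood high. Of the 22 immediate early genes, 19 had a positive change and 3 a negative one, with a median of 0.281 and none called. Nr4a1, a nuclear receptor induced by activity, was at 152 and 169 CPM in young, 166 and 160 CPM in middle and 246 and 174 CPM in old sections (log2 change 0.38, adjusted p = 0.704 by edgeR). The old 1 section was the high one. Arc, the dendritic activity marker, was at 233 and 279 CPM in young and 230 and 197 CPM in old sections (log2 change -0.28, adjusted p = 0.837).

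**Figure D3:**
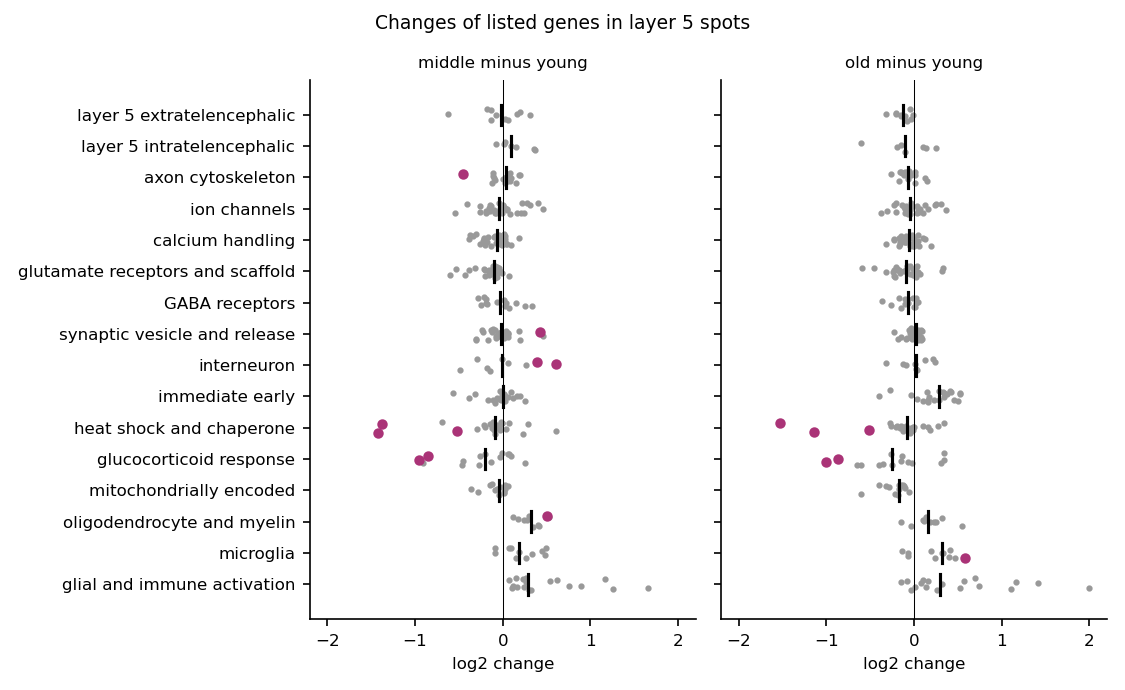
Log2 change of each tested gene (x axis) within its list (y axis), for middle against young (left) and old against young (right) layer 5 spots; grey points are single genes, coloured points pass the adjusted p of 0.05 and black lines are list medians. In the old against young panel the median is -0.091 for glutamate receptors and 0.315 for microglia, and 3 of 27 chaperone genes are called in each panel. The haemoglobin and meningeal genes are not plotted.

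Middle layer 5 spots were then set against the same young sections, so the comparison shares its controls with the one above. Higher in the middle sections were Pvalb and Slc32a1, both interneuron genes, Mag and other genes known from oligodendrocytes, and AC149090.1; lower were the haemoglobin genes, Hspa1a, Hspa1b, Dnajb1, Sgk1, Nfkbia, the growth-cone protein gene Gap43 and the endothelial gene Apold1. In all, 32 of 12641 genes passed edgeR's test (0.253%), 19 higher (0.15%) and 13 lower (0.103%). These counts leave out the 5 genes that chose the spots. Rbp4, 1 of these 5, was also lower. Its level of 71.7 and 63.5 CPM in young and 41.7 and 53.1 CPM in middle sections is a description only. The count was 233 without young 1, 17 without either middle section, 58 without old 1 and 60 without old 2. With the slide as a block 12 were called, 8 of them the same. Of all genes, 18.5% were higher and 17.1% lower in both middle sections than in either young one. The calls of the 2 comparisons had 8 genes in common, 72.7% of the 11 and 25% of the 32: AC149090.1, Cox6a2, Dnajb1, Hspa1a, Hspa1b, Nfkbia, Nkx6-2 and Sgk1.

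Pvalb, which sets the calcium buffering of fast-spiking interneurons, was at 508 and 426 CPM in young, 698 and 728 CPM in middle and 541 and 583 CPM in old layer 5 spots. The middle sections were the highest, the old ones lay between, and no group overlapped another. The log2 change from young to middle was 0.61 (SE 0.08, adjusted p = 3.23e-05 by edgeR), and that from middle to old was -0.37 (adjusted p = 0.209). The call was lost with 200 members per section and with a score on thinned spots, where the largest adjusted p was 0.253. Among the members, Pvalb ran with the rule genes Parm1 (mean Spearman coefficient 0.39) and Stac2 (0.32). The means were -0.20 with Fezf2, -0.05 with Etv1 and -0.04 with Rbp4. Whether the choice of spots had a part in the Pvalb values was not tested. Vamp1, the vesicle protein of fast terminals, was at 180 and 163 CPM in young, 204 and 259 CPM in middle and 177 and 185 CPM in old sections (log2 change 0.43, adjusted p = 0.0263 by edgeR). Kcnab3, a potassium channel beta subunit picked after its values were seen, was at 99.1 and 89.9 CPM in young, 119 and 132 CPM in middle and 98.2 and 101 CPM in old sections (log2 change 0.40, adjusted p = 0.0369). Slc32a1, the vesicular GABA transporter, was at 109 and 107 CPM in young, 129 and 157 CPM in middle and 132 and 122 CPM in old sections (log2 change 0.40, adjusted p = 0.0374). The calls on Vamp1, Kcnab3 and Slc32a1 were lost without young 2 (adjusted p = 0.0872, 0.262 and 0.0897), without middle 2 (0.807, 0.544 and 0.818) and with the slide as a block (0.252, 0.234 and 0.242), and that on Kcnab3 also without middle 1 (0.17).

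Pvalb and Slc32a1 were the only interneuron genes called. Of the 9 tested, 4 had a positive and 5 a negative change. Gad1, a GABA-synthesising enzyme, had a log2 change of 0.26 (adjusted p = 0.226), Gad2 of -0.15 (adjusted p = 0.826) and the neuropeptide gene Sst of -0.48 (adjusted p = 0.855), all by edgeR. Sst was at 449 and 726 CPM in young, 391 and 448 CPM in middle and 447 and 505 CPM in old sections, so young 2 alone stood high. Syt2, picked after its values were seen, had a change of 0.46 (adjusted p = 0.221). The summed level of the 9 genes was 1820 and 2017 CPM in young, 1940 and 2178 CPM in middle and 1768 and 2078 CPM in old sections, so the groups overlapped.

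Mag, the myelin-associated glycoprotein gene, was at 103 and 97.3 CPM in young, 136 and 149 CPM in middle and 104 and 138 CPM in old sections (log2 change 0.50, adjusted p = 0.0311 by edgeR). It was the called gene of the 10 myelin genes tested, all of which had a positive change, with a median of 0.324. Bcas1 (0.45), Plekhb1 (0.42), Gatm (0.41), Sept4 (0.40), Evi2a (0.70) and Nkx6-2 (0.86) also rose on the log2 scale, the first 4 of these being named after their values were seen. Evi2a was at 21.1 and 22.1 CPM in young, 35.1 and 34.8 CPM in middle and 30.4 and 28.6 CPM in old sections (adjusted p = 0.0215). Id3, an inhibitor of basic helix-loop-helix factors expressed in glia and vessels, was at 16.6 and 19.1 CPM in young, 32.5 and 27.5 CPM in middle and 28.0 and 32.8 CPM in old sections (log2 change 0.77, adjusted p = 0.0228). The calls on Mag, Evi2a and Nkx6-2 were lost without either middle section (adjusted p from 0.106 to 0.412), those on Evi2a and Nkx6-2 also without young 2 (0.055 and 0.179), and that on Id3 without middle 1 (0.488). The summed myelin genes were at 3651 and 3338 CPM in young, 4118 and 4666 CPM in middle and 3615 and 4582 CPM in old sections. Middle sections and old 2 were the high ones, and whether the layer 5 spots of these sections held more white matter was not tested.

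The haemoglobin genes showed the widest change. Hbb-bs, adult beta-globin, was at 36.0 and 22.8 CPM in young, 3.59 and 3.66 CPM in middle and 18.7 and 15.4 CPM in old layer 5 spots (log2 change young to middle -3.02, adjusted p = 2.85e-08 by edgeR). All 4 haemoglobin genes tested fell from young to middle (median -2.63), and their summed level was 63.3 and 45.3 CPM in young, 10.4 and 8.37 CPM in middle and 36.8 and 35.8 CPM in old sections. The paired copies Hba-a1 and Hba-a2, like Hbb-bs and Hbb-bt, are near-identical, so the split between them is uncertain. Apold1, an endothelial immediate early gene, was at 13.7 and 14.3 CPM in young, 5.79 and 8.11 CPM in middle and 15.9 and 10.8 CPM in old sections (log2 change young to middle -1.03, adjusted p = 0.0497, held in 8 of 21 alternatives). Ly6c1, a vessel surface protein gene, rose by 0.51 in the same contrast, and was called in 5 of 21 alternatives. The fall of Hbb-bs stayed called when any 1 section was left out and was lost with 60 or 200 members per section (adjusted p = 0.874 and 0.697). Blood left in the vessels of each brain was not measured apart from these genes, and its part in the values was not tested.

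The chaperone and glucocorticoid-response genes named above were lower at 18 months as well, against the same young sections. Hspa1a had a log2 change of -1.37 (adjusted p = 2.12e-07), Hspa1b of -1.42 (adjusted p = 2.63e-06), Dnajb1 of -0.52 (adjusted p = 0.00548), Sgk1 of -0.85 (adjusted p = 8.72e-05) and Nfkbia of -0.96 (adjusted p = 0.0058) from young to middle, all by edgeR. Without middle 1 the calls on Dnajb1 and Nfkbia were lost (adjusted p = 0.251 and 0.403). Gap43, a presynaptic growth protein, was at 361 and 408 CPM in young, 293 and 265 CPM in middle and 340 and 309 CPM in old sections (log2 change -0.46, adjusted p = 0.00232, and 0.332 without middle 2). Pcdh8, an activity-induced protocadherin chosen after its values were seen, was at 35.2 and 42.9 CPM in young, 24.3 and 25.9 CPM in middle and 33.4 and 26.9 CPM in old sections (log2 change -0.64, adjusted p = 0.0389, and above 0.05 without young 2 or either middle section). Of the 33 glutamate receptor and scaffold genes, 32 had a negative change and 1 a positive one, with a median of -0.102 and none called; Grm5 had a change of -0.31 (adjusted p = 0.214) and Grin2b of -0.21 (adjusted p = 0.668). The 22 immediate early genes were divided 11 and 11 around 0 (median 0.002), and all 18 glial activation genes were above 0 (median 0.286), with none called.

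**Figure D4:**
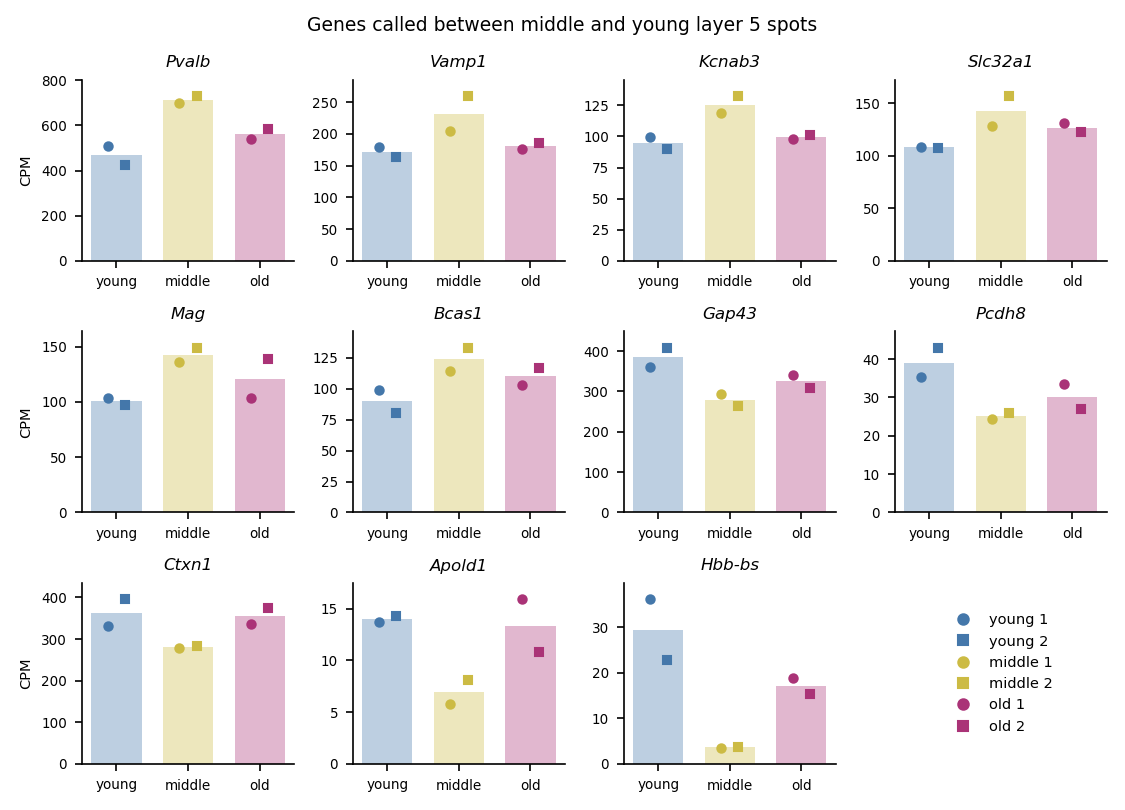
CPM of summed layer 5 spots (y axis, linear from 0) by age (x axis) for 11 of the 32 genes called between middle and young; each point is 1 section and each bar a group mean. Pvalb is highest in the middle sections (698 and 728 CPM), Hbb-bs is lowest there (3.59 and 3.66 CPM), and Gap43 falls from 361 and 408 CPM to 293 and 265 CPM.

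Old and middle layer 5 spots differed in 1 called gene, Hbb-bs, out of 12641 (0.00791%). The count was 44 without either young section, 17 without old 1, 8 without old 2 and 0 without middle 1. Its log2 change was 2.22 (adjusted p = 0.000443 by edgeR), and the call was lost without middle 1 (adjusted p = 0.106) or middle 2 (adjusted p = 0.0551). At an unadjusted p under 0.05 there were 641 genes; 17.2% of all genes were higher and 17.4% lower in both old sections than in either middle one. Of the 22 immediate early genes, 21 had a positive change and 1 a negative one, with a median of 0.227, and all 13 mitochondrially encoded genes had a negative change, with a median of -0.144; 0 of either list were called. The mitochondrial share was 16.4% in middle 1, 14.59% in middle 2, 13.9% in old 1 and 14.55% in old 2, so middle 1 alone stood high. The 10 myelin genes had 9 negative changes (median -0.152), and the 11 microglial genes were divided 6 and 5 (median 0.028).

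The age change was then compared between layer 5 spots and the remaining spots of each section, with the section as a block. Among the genes that differed, immediate early genes had a more positive change in layer 5 spots than in the rest of the section, and a few meningeal and vascular genes did too. Of 16890 genes tested, 18 had an old against young change that differed (0.107%), 16 more positive in layer 5 spots (0.0947%) and 2 more negative (0.0118%). There were 32 without young 1 and 33 without old 1. Without old 2 there were 15, 8 more positive and 7 more negative, 8 of them the same genes, and without the members low in Slc17a7 or high in meningeal genes 18, 12 more positive and 6 more negative, 12 of them the same. Of 22 immediate early genes tested, 7 were among the 16 (Egr1, Nr4a1, Junb, Egr3, Dusp1, Nr4a2 and Btg2), 21 had a difference above 0, and the median was 0.386 against 0.001 for all genes.

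Egr1, a zinc-finger factor of the activity response, was at 335 and 391 CPM in young and 398 and 394 CPM in old layer 5 spots. In the other spots it was at 334 and 385 CPM in young and 307 and 267 CPM in old sections. Young and old sections overlapped in neither set: the old ones were slightly higher in layer 5 spots (394 against 391 CPM at the closest) and lower in the other spots. Within layer 5 spots Egr1 was not called between old and young. There, 17.5% of all genes were higher in both old sections than in either young one. The difference between the log2 changes was 0.47 (SE 0.06, adjusted p = 1.11e-08 by edgeR) and held in 17 of 18 alternatives, the exception being a score without Etv1 (0.39, adjusted p = 0.727). Junb, an AP-1 subunit, was at 68.6 and 94.7 CPM in young and 123 and 95.8 CPM in old layer 5 spots, and at 75.7 and 107 CPM in young and 102 and 75.7 CPM in old other spots (difference 0.47, SE 0.09, adjusted p = 0.00246). Egr3 was at 115 and 128 CPM in young and 149 and 127 CPM in old layer 5 spots, and at 110 and 133 CPM in young and 115 and 96.7 CPM in old other spots (difference 0.39, adjusted p = 0.00774). Both lost the call without young 2 (adjusted p = 0.0611 and 0.296) and without old 2 (0.0519 and 0.0842), and Egr3 also without old 1 (0.145).

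Promoters are shown for Nr4a1 and Dusp1, members of this group with matches to the cyclic AMP response element. The 250 bases before the start are from RefSeq, GRCm38.p6: Nr4a1 at chr15:101266596-101266845, plus strand, and Dusp1 at chr17:26508473-26508722, minus strand. Capitals mark the short form TGACG or its reverse complement CGTCA, and the whole form TGACGTCA, which contains both; both strands were searched. Of 32851 promoters of this length, 5836 (17.8%) held the short form and 508 (1.55%) the whole one.
Nr4a1: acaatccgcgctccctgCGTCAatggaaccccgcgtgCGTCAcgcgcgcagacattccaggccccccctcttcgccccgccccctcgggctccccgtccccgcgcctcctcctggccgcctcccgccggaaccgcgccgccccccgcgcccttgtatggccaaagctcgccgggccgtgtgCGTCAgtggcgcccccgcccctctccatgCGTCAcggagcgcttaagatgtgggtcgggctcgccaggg
Dusp1: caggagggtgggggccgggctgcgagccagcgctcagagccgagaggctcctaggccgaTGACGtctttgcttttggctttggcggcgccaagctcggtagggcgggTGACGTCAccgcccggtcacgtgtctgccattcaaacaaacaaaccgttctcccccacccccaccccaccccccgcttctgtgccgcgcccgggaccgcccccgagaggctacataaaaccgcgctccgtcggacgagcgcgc
Nr4a1 held the short form starting at bases -233, -213, -69 and -40, and Dusp1 held it at -191 and the whole form at -143. Of the 17 immediate early genes with a RefSeq promoter, 10 held the short form and 2 (Btg2 and Dusp1) the whole one. Of 22 chaperone genes with a promoter, 11 held the short form and 0 the whole one, and the heat shock element core was in 6 of these 22 and in 3 of the 17 immediate early genes.

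Nr4a1 was at 152 and 169 CPM in young and 246 and 174 CPM in old layer 5 spots, and at 120 and 143 CPM in young and 150 and 106 CPM in old other spots (difference of log2 changes 0.44, SE 0.08, adjusted p = 0.000109 by edgeR). Old 1 was the highest section in both sets. Dusp1, a phosphatase that shuts off MAP kinases, was at 79.9 and 84.3 CPM in young and 127 and 80.4 CPM in old layer 5 spots, and at 63.9 and 68.3 CPM in young and 71.2 and 56.5 CPM in old other spots (difference 0.41, adjusted p = 0.0256). Without old 1 the difference was 0.20 (adjusted p = 0.988), and the call was also lost without young 1 (0.11) or young 2 (0.196). Nr4a2, an orphan nuclear receptor, was at 24.2 and 30.6 CPM in young and 45.8 and 33.1 CPM in old layer 5 spots, and at 51.4 and 56.6 CPM in young and 52.6 and 48.8 CPM in old other spots (difference 0.66, SE 0.14, adjusted p = 0.00502). Btg2, an antiproliferative gene of the same response, was at 12.9 and 13.9 CPM in young and 21.6 and 17.1 CPM in old layer 5 spots, and at 25.7 and 22.5 CPM in young and 20.6 and 18.2 CPM in old other spots (difference 0.87, SE 0.20, adjusted p = 0.0163). Neither gene overlapped between young and old layer 5 spots. Both were higher in the old ones, as were 17.5% of all genes, and neither was called within layer 5 spots. Without old 1 the differences were 0.43 for Nr4a2 (adjusted p = 0.917) and 0.76 for Btg2 (adjusted p = 0.564), and without young 1 they were 0.57 (0.181) and 0.72 (0.386). These calls were also sensitive to depth: with every sum thinned to the smallest one, only Egr1 was called (difference 0.50, adjusted p = 0.00152).

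**Figure D5:**
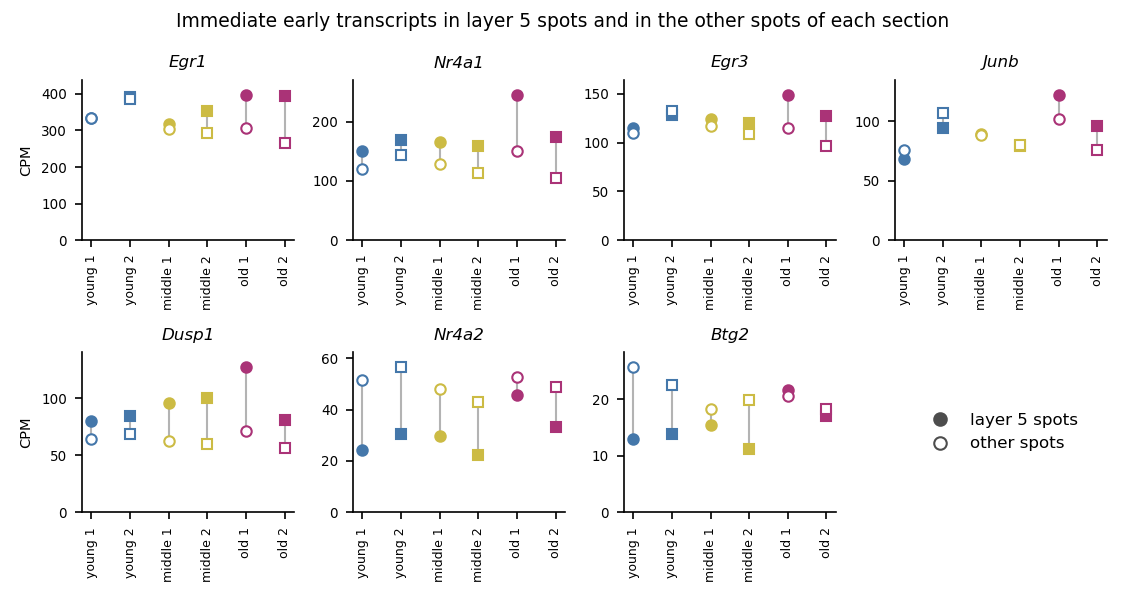
CPM (y axis, linear from 0) of immediate early genes in each of the 6 sections (x axis), for the summed layer 5 spots and for the summed other spots of the same section. For Egr1 both sets stand together in the young sections (335 and 334 CPM in young 1) and apart in the old sections (394 and 267 CPM in old 2).

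Igf2, a growth factor made by the meninges, was at 3.89 and 2.60 CPM in young and 5.93 and 14.4 CPM in old layer 5 spots, and at 29.5 and 25.5 CPM in young and 24.4 and 28.3 CPM in old other spots (difference 1.64, SE 0.31, adjusted p = 0.000515 by edgeR). Crip1, a LIM protein of vessels and meninges, was at 8.40 and 8.67 CPM in young and 14.5 and 31.8 CPM in old layer 5 spots, and at 24.3 and 20.5 CPM in young and 25.6 and 35.6 CPM in old other spots (difference 0.96, SE 0.21, adjusted p = 0.00774). Old 2, the section whose members held the most meningeal transcript, was the highest for both. Without the members low in Slc17a7 or high in meningeal genes, the differences were 0.55 for Igf2 (adjusted p = 1) and 0.51 for Crip1 (adjusted p = 0.978), while that of Egr1 was 0.48 (adjusted p = 5.995e-10); Igf2 is itself among the genes by which those members were left out. Without old 2 they were 1.06 (adjusted p = 0.901) and 0.60 (adjusted p = 1), and Crip1 also lost the call without young 1 (adjusted p = 0.366). Plxnd1, a semaphorin receptor of vessels and neurons, had a difference of 0.59 (SE 0.14, adjusted p = 0.0334), lost without any of young 1, young 2 and old 2. The other 6 of the 16, named after their values were seen, were Klf4, Camk2n1 and the low-count genes H2-Aa, Serping1, Myoc and Aebp1, the last 4 at 11.2 CPM or less in the layer 5 spots of every section. Resp18, a secretory granule gene, was the most abundant gene with a more negative change in layer 5 spots: it was at 188 and 185 CPM in young and 162 and 201 CPM in old layer 5 spots, and at 233 and 214 CPM in young and 256 and 303 CPM in old other spots (difference -0.36, SE 0.07, adjusted p = 0.00439), lost without young 2 (0.196) or old 1 (0.135). Hbb-bs was the other (difference -0.77, adjusted p = 0.0207), lost without either young section or old 1.

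None of the 11 genes called between old and young layer 5 spots was among the 18, so for these genes no difference from the rest of the section was called. Of the 27 chaperone genes, 0 were called, with a median difference of 0.053. Of the 11 microglial genes, 10 had a less positive change in layer 5 spots than in the others (median -0.208) and 0 were called; their summed level in the other spots was 544 and 598 CPM in young and 767 and 885 CPM in old sections.

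Against 120 layer 2/3 spots of each section, chosen by Cux2, Rasgrf2, Stard8, Otof and Lamp5, 0 of 13185 genes had a different age change (0%) by edgeR, with 649 at an unadjusted p under 0.05, and DESeq2 also called 0; edgeR called 63 without old 2, 17 without old 1 and 1 without either middle section. Egr1 in layer 2/3 spots was at 577 and 670 CPM in young and 589 and 537 CPM in old sections. Immediate early genes had a median difference of 0.229, with 20 of 22 above 0. Against 120 layer 6 spots, chosen by Hs3st4, Syt6, Rprm, Ccn2 and Tle4, 11 of 12961 genes differed (0.0849%), all more positive in layer 5. The count was 28 without young 2, 18 without old 1 and 7 without old 2. Pvalb in layer 6 spots was at 107 and 84.6 CPM in young and 71.5 and 69.9 CPM in old sections, against 508 and 426 CPM and 541 and 583 CPM in layer 5. The difference was 0.72 (SE 0.09, adjusted p = 2.52e-05 by edgeR). Young and old sections did not overlap in either layer, with the old ones higher in layer 5 and lower in layer 6. Within layer 5 spots Pvalb was not called between old and young, and 17.5% of all genes were higher in both old sections. Whether the choice of spots had a part in this difference was not tested. Egr1 in layer 6 was at 626 and 733 CPM in young and 612 and 511 CPM in old sections (difference 0.42, SE 0.07, adjusted p = 0.00129), and Nr4a1 at 192 and 213 CPM in young and 243 and 148 CPM in old sections (difference 0.46, adjusted p = 0.0144). Both calls were lost without old 2 (adjusted p = 0.212 and 0.295).

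Rps29 (difference 0.34, adjusted p = 0.000313), Rps27 (0.36, adjusted p = 0.00129), Rps14 (0.26, adjusted p = 0.0257), all of the small subunit, and Rplp1 (0.21, adjusted p = 0.0392), of the large subunit and named after its values were seen, had higher log2 changes in layer 5 spots by edgeR. These genes have many near-identical pseudogenes, so their read assignment is uncertain. Rps27 lost the call without old 2 (adjusted p = 0.171), Rps14 lost it without young 1 or either old section, and Rplp1 without any of the young or old sections. Rps27 was at 811 and 752 CPM in young and 670 and 709 CPM in old layer 5 spots. Of 91 cytosolic ribosome genes tested, 84 had a difference above 0, with a median of 0.135 against -0.002 for all genes. Gm42418, a gene model that overlaps a ribosomal RNA repeat, was at 690 and 546 CPM in young and 494 and 664 CPM in old layer 5 spots, and at 827 and 567 CPM in young and 410 and 517 CPM in old layer 6 spots (difference 0.50, SE 0.07, adjusted p = 6.19e-05). Igf2 and Crip1 were called here too, with differences of 2.32 and 1.5 that lost the call without the members high in meningeal genes (adjusted p = 0.718 and 0.348) and without old 2 (0.325 and 0.667) or young 1 (0.435 and 0.661). mt-Co2, a mitochondrially encoded cytochrome oxidase subunit, had the smallest of the 11 differences, 0.16 (adjusted p = 0.0383), and lost the call without young 1 or either old section.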

How the data were processed

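Spatial gene expression was measured in 6 coronal mouse brain sections. The deposited files hold UMI counts per gene and spot, made by the authors: the file headers name Space Ranger 1.3.1 and the submitters' processing notes name Space Ranger 3.1 and mm10, and the difference was not resolved. Whether spots outside the tissue had been removed is not given in the sources used here; 2 spots fell below 500 UMIs. The 5-gene score and the 120 members per section were computed from the counts, UMIs were summed per section, and a section was the replicate. Sections come from 2 males per age per the labels, so p-values measure the spread between these sections.

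Gene sums were tested with edgeR 4.0.16 in R 4.3.3 (TMM factors 0.976 to 1.013, filterByExpr, robust quasi-likelihood F test, all 6 sections, 3 age groups), two-sided, with Benjamini-Hochberg adjustment over all genes tested. The SE given with a log2 change was derived from the test, as the absolute change divided by the square root of F. The design with section as a block tested whether the old against young change differed between layer 5 spots and the other, layer 2/3 or layer 6 spots. Single section summaries used an exact permutation test. DESeq2 1.42.0 served as an alternative. The 5 rule genes entered the fit but were left out of the counts of genes tested and called. Their values are given as descriptions. The fits were tested on simulated data. Doublet callers do not apply to spots and none was run. Replicates differed by more than counting noise (chi-square per degree of freedom 4.59, 3.88 and 2.96 for young, middle and old). Of 32285 features, 32235 matched a gene annotation used for positions.

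Genes were named by rule: up to 10 (old against young) or 5 (other comparisons) called genes per direction with the largest change, at least 10 CPM and no overlap between groups; called or abundant members of gene lists; and the 20 genes outside the score most enriched in layer 5 spots. Uncalled list members given for their role were chosen after their values were seen. Members and lists were chosen with earlier results of these data known. Ratios use a pseudocount of 1 CPM. Alternatives changed the tool, normalization, filter, depth, number of members, score, slide or replicate block and the sections used. Results on a few genes are not reported here.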

Additional observations from a re-analysis of the deposited data

Results flagged for a closer look

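These results are listed because the old against young change in layer 5 spots differed from that in other spots of the same sections, by edgeR's test of the difference itself. Against all other spots, the difference on the log2 scale was 1.64 for Igf2, 0.96 for Crip1, 0.87 for Btg2, 0.66 for Nr4a2 and 0.59 for Plxnd1. It was -0.77 for Hbb-bs and -0.36 for Resp18. Against layer 6 spots, it was 1.5 for Crip1, 0.72 for Pvalb, 0.50 for Gm42418, 0.46 for Nr4a1 and 0.42 for Egr1.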

How the results depend on the processing

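Over 89 named values and 1766 alternative fits of them, 1237 kept direction and side of the threshold, 491 kept the direction and lost the call, 33 gained one and 5 reversed. The reversals were all between layer 5 and other spots: H2-Aa at -0.32 with 60 members per section and -0.27 with members rich in Slc17a7 and low in meningeal genes, an alternative chosen after seeing the data, Myoc at -1.05 and -0.92 under the same settings, and Serping1 at -0.45 with 60 members; the cause was not tested. Hspa1a, Hspa1b and AC149090.1 stayed called between old and young in all 21 alternatives. Leaving out a section of a pair leaves a lone section that is assumed to vary like the others.

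Called genes numbered, between old and young (11), 4 with DESeq2, 49 without a count filter and 6 with 60 members, and 11 to 102 with 1 section left out. Between middle and young (32) they numbered 9 with DESeq2, 96 without a filter, 16 with sums thinned to the smallest, 13 with 60 and 18 with 200 members, 18 with a score on thinned spots, 13 with a score without Etv1, 12 with the slide as a block, and 17 to 233 with 1 section left out. Between old and middle (1) they numbered 18 without a filter, 22 when only these groups were fitted, 0 with 60 members, a score on thinned spots, a score without Etv1, members low in meningeal genes, or without mitochondrially encoded and haemoglobin genes, and 0 to 44 with 1 section left out. Against other spots (18) they numbered 1 with DESeq2, 6 with at least 10 counts in every sum, 2 with the newer quasi-dispersion, 1 with thinned sums, 6 with 60 and 4 with 200 members, and 15 to 33 with 1 section left out. Against layer 2/3 (0) they numbered 10 without a filter, 3 with thinned sums, 6 with 200 members, 2 with a score on thinned spots, 2 without Etv1, 3 with members low in meningeal genes, 1 with young and old sections only, and 0 to 63 with 1 section left out. Against layer 6 (11) they numbered 1 with DESeq2, 17 with RLE factors, 33 without a filter, 3 with 60 members, 18 with a score on thinned spots, 21 without Etv1, and 7 to 28 with 1 section left out.

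Same-numbered sections showed little common deviation, with correlations of -0.031 (young and middle), -0.000626 (young and old) and 0.0705 (middle and old). Middle and old sections of the same number did share a slide, and these correlations cannot show that the slide had no effect. With a replicate block 16, 36 and 2 genes were called in the 3 age comparisons. The 2 sections per age and the depth, lowest in old 2, limit the precision, most for genes at a few CPM.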
